A study of Mus musculus with 5 samples.

Results

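The genes described here are 9 members of the fibroblast growth factor (FGF) system: the ligand genes *Fgf7*, *Fgf8*, *Fgf9*, *Fgf10* and *Fgf18* and the receptor genes *Fgfr1*, *Fgfr2*, *Fgfr3* and *Fgfr4*. They were chosen by symbol from the 32285 genes of the deposited single cell count matrices, and all 9 were found, 1 row each. The study asked how the baculum, the bone of the mouse penis, develops, and set cells of the developing penis beside cells of developing limbs. Single cell RNA sequencing gave 5 libraries of UMI counts, in which each unique molecular identifier stands for 1 captured transcript. Penis was sampled in 3 libraries from male pups at postnatal day 6 (P6), with the foreskin removed. Forelimb and hindlimb gave 1 library each, from male embryos at embryonic day 15 according to the labels. The labels name the strain C57BL/6N for all libraries, whereas the study's methods name C57BL/6J. No allele was altered and no agent was given in these libraries. The penises came from 3 males of 2 litters, and the labels do not tell which mouse or litter a library holds. The limbs came from 6 male embryos, and it is not stated whether both limb libraries hold the same embryos. P-values therefore measure the spread between these libraries, which may be technical, and which on the limb side is that between a forelimb and a hindlimb. Tissue and age differ together between penis and limb and cannot be told apart. It is not stated whether the penis and limb libraries were prepared together.

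FGF ligands are secreted proteins that bind, together with heparan sulfate, to receptor tyrosine kinases on the cell surface. Ligands such as FGF7 and FGF10 are made by mesenchyme and act on the epithelial splice form of FGFR2, whereas FGF9 and FGF18 act mainly on mesenchymal splice forms of the receptors. Receptor binding activates the MAP kinase pathway, which raises its own inhibitors of the Sprouty family and transcription factors of the ETV group. In the limb, FGF10 in mesenchyme and FGF8 in the apical ectodermal ridge drive outgrowth, FGF18 and FGFR3 act on growth plate cartilage, and FGFR4 is known from muscle precursors. In the genital tubercle, FGF10 and FGFR2 take part in closure of the urethra. The libraries count transcripts at their 3′ ends, so the epithelial and mesenchymal splice forms of a receptor were not told apart here.

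The members lie on 8 chromosomes of the mouse genome (build GRCm38, GENCODE annotation), each as a protein-coding gene. Among the ligands, *Fgf7* spans chr2:126034658-126091185, *Fgf8* chr19:45736798-45742915, *Fgf9* chr14:58070547-58112720, *Fgf10* chr13:118669791-118792115 and *Fgf18* chr11:33117430-33147400. Among the receptors, *Fgfr1* spans chr8:25513654-25575718, *Fgfr2* chr7:130162451-133123350, *Fgfr3* chr5:33721674-33737068 and *Fgfr4* chr13:55152640-55168759. *Fgf8*, *Fgf18* and *Fgfr2* are on the minus strand and the other members on the plus strand. The annotated span of *Fgfr2* covers 2960900 bases and overlaps 69 other genes, of which 14 are protein-coding on its own strand. No other member overlaps a protein-coding gene on its own strand. The annotation release used for counting is not given in the sources used here, nor is it stated whether reads in introns were counted, and the part of such overlapping genes in the *Fgfr2* counts was not tested.

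Promoter windows of 250 bases before the transcription start (RefSeq, build GRCm38.p6) were at hand for 7 of the 9 genes. They are printed for *Fgf7* and *Fgf18*, the members whose window overlaps no annotated exon and whose RefSeq and GENCODE starts coincide. Capitals mark CG dinucleotides. *Fgf7* lies at chr2:126034408-126034657 (plus strand) and *Fgf18* at chr11:33147401-33147650 (minus strand), both read 5′ to 3′ along the gene.
Fgf7: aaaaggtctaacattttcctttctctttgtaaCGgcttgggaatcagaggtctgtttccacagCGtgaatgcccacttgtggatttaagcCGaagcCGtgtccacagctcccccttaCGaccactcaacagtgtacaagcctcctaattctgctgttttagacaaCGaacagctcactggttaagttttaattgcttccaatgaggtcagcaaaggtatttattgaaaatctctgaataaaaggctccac
Fgf18: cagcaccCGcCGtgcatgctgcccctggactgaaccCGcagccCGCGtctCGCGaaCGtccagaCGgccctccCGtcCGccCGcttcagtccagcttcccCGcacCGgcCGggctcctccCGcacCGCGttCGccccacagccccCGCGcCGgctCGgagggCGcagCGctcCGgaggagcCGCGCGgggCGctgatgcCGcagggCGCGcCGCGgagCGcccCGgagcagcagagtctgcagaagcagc

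The *Fgf7* window holds 6 CG dinucleotides, which is the median of the 32851 RefSeq windows of this length, and 50.35% of them hold as many or more. The *Fgf18* window holds 37, a number that 2.204% of the windows reach. The other members with a window lie between these values, apart from *Fgfr2* with 2. This is a description of the letters and says nothing of the activity of the promoters.

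After filtering on genes detected and mitochondrial share, the penis libraries held 5708 to 7085 cells and 51529854 to 68417925 UMIs, and the limb libraries 20514 and 22057 cells with 148752710 and 142718533 UMIs. The median depth was 8791.5 to 9909 UMIs per penis cell, against 5358 in the forelimb and 6057 in the hindlimb. At most 37 cell barcodes were shared by any 2 penis libraries, and 203 by the limb libraries. Cells were assigned to types by counting detected marker genes, none of which is a member, and each name carries "-like" since markers are all that it is based on. Mesenchyme-like cells were the most numerous type, with 3712 to 4446 cells in a penis library, 11318 in the forelimb and 10662 in the hindlimb. Muscle-like cells numbered 1160 and 974 in the limb libraries and 0 in the penis libraries. The chondrocyte-like gate was less sharp in the penis: 50.7% to 55.8% of the 113 to 142 penis cells sat at the gate's lower limit of 7 markers, against 14.9% and 14.6% of the limb cells. Osteoblast-like cells (8 to 28 a library) and red blood-like cells of the penis (8 to 12) numbered under 20 in some library and were left out of the orders of cell types given below. Levels below are in CPM, the UMIs of a gene divided by all UMIs of the cells of that type in that library and scaled to a common total.

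*Fgf10*, which signals from mesenchyme to epithelium, was highest in mesenchyme-like cells of the penis and the forelimb, and in mural-like cells of the hindlimb, where the counting intervals of these types overlapped. Of the penis types left out of this order, osteoblast-like cells ranged from 7.82 to 63.2 CPM on 30 UMIs and red blood-like cells from 0 to 103 CPM on 11 UMIs. In mesenchyme-like cells its level was 65.9, 65.2 and 75.9 CPM in the penis libraries, 38.2 CPM in the forelimb and 59.3 CPM in the hindlimb. All penis libraries lay above both limb libraries. Keratinocyte-like cells held 2 to 4 *Fgf10* UMIs in each penis library, at 0.891 to 1.33 CPM, and 0 and 1 UMIs in the limb libraries. At least 1 UMI of *Fgf10* was seen in 34.0% to 35.0% of penis mesenchyme-like cells, 15.6% of those of the forelimb and 23.3% of those of the hindlimb. Because the penis cells were deeper, these shares were also computed after thinning each cell to 2000 UMIs, which gave 11.0% to 12.5%, 6.63% and 9.73%. In white blood-like cells, a blood lineage that should lack the gene, the thinned shares were 0.0% to 0.568% in penis libraries and 0.647% and 0.732% in forelimb and hindlimb, at median depths of 6143.5 to 7699 UMIs in the penis and 6657.5 and 7738 in the limbs. Among the penis types in the order, tendon-like cells followed mesenchyme-like cells, at 24.9 to 44.4 CPM, and their range overlapped that of mural-like cells (pericytes and smooth muscle) at 19.1 to 32.1 CPM.

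*Fgf7*, the keratinocyte growth factor gene, was highest in mural-like cells. Its level there was 43.5, 61.9 and 41.1 CPM in the penis libraries, 35.2 CPM in the forelimb and 40.7 CPM in the hindlimb. Mesenchyme-like cells came next in both tissues, with 29.9, 32.7 and 33.3 CPM in the penis libraries against 27.0 and 27.8 CPM in forelimb and hindlimb. In the penis the order then ran through tendon-like cells at 19.2 to 32.7 CPM and chondrocyte-like cells at 12.9 to 24.1 CPM, and the ranges of these neighbours overlapped. Keratinocyte-like and endothelial-like cells stayed at or below 3.85 CPM in every library. After thinning, 5.54% to 6.14% of penis mesenchyme-like cells had an *Fgf7* UMI, beside 4.81% of those of the forelimb and 5.10% of those of the hindlimb, against at most 0.821% of white blood-like cells in any library (unthinned, 21.8% to 23.2%, 13.3% and 15.1% against at most 2.47%).

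*Fgf18*, a ligand gene known for its role in bone and cartilage growth, was highest in tendon-like cells. The level there was 29.2, 30.4 and 32.7 CPM in the penis and 56.6 and 51.6 CPM in forelimb and hindlimb. Mesenchyme-like cells held 22.3, 22.4 and 23.7 CPM in the penis libraries against 41.5 and 39.7 CPM in forelimb and hindlimb. Both limb libraries lay above all penis libraries in mesenchyme-like, tendon-like, mural-like, chondrocyte-like and endothelial-like cells. The same was so in white blood-like cells, a background type, with 1.65 to 2.58 CPM in the penis and 6.14 and 5.01 CPM in forelimb and hindlimb. Thinned to 2000 UMIs, 3.91% to 4.17% of penis mesenchyme-like cells had a UMI of the gene, beside 7.42% and 7.31% of those of forelimb and hindlimb. Unthinned, the shares were 16.8% to 17.3%, 21.2% and 21.8%. White blood-like cells had thinned shares of 0.199% to 0.457% in penis libraries and of 1.05% and 0.925% in forelimb and hindlimb.

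*Fgf9* showed opposite tissue patterns in mesenchyme-like and tendon-like cells. Mesenchyme-like cells held 9.56, 10.8 and 11.5 CPM in the penis libraries and 3.18 and 3.09 CPM in forelimb and hindlimb. Tendon-like cells held 12.9, 13.2 and 8.18 CPM in the penis and 30.2 and 37.9 CPM in the limbs, from 7 to 97 UMIs a library. The tissues did not overlap in either type, and the tendon-like cells were not tested. What this gate held differed too: the mesenchyme list summed to 6831 to 7133 CPM in the penis and 4073 and 3622 CPM in the limbs, the tendon marker *Tnmd* stood at 193 to 458 CPM against 1013 and 747 CPM, and 70.7% to 82.3% of penis cells sat at the lower limit of the gate against 62.2% and 54.3% of limb cells. Their part in the tendon-like levels was not tested. In muscle-like cells of the limbs *Fgf9* stood at 5.09 CPM in the forelimb and 7.84 CPM in the hindlimb. The thinned share of mesenchyme-like cells with a UMI was 1.78% to 2.09% in penis libraries and 0.665% and 0.687% in forelimb and hindlimb, against at most 0.185% of white blood-like cells (unthinned, 7.04% to 7.19%, 1.71% and 1.92% against at most 0.529%).

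*Fgf8*, the ligand gene of the apical ectodermal ridge, was close to absent. Keratinocyte-like cells held 0 UMIs in all 5 libraries, which allows a level of up to 0.946 to 1.34 CPM in a penis library and up to 3.21 and 2.77 CPM in forelimb and hindlimb. Counting intervals and such limits cover counting error only. Mesenchyme-like cells held 18, 17 and 11 UMIs in the penis and 50 and 36 in the limbs, which are levels of 0.380, 0.370, 0.310, 0.660 and 0.459 CPM. The highest level was in limb tendon-like cells, at 5.79 CPM in the forelimb (14 UMIs) and 4.30 CPM in the hindlimb (11 UMIs), where penis tendon-like cells held 1, 0 and 0 UMIs. Of the tendon-like cells, 1.26% in the forelimb and 0.888% in the hindlimb had an *Fgf8* UMI after thinning, against 0.0232% and 0.0747% of white blood-like cells (unthinned, 5.12% and 3.27% against 0.0822% and 0.258%).

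**Figure D1:**
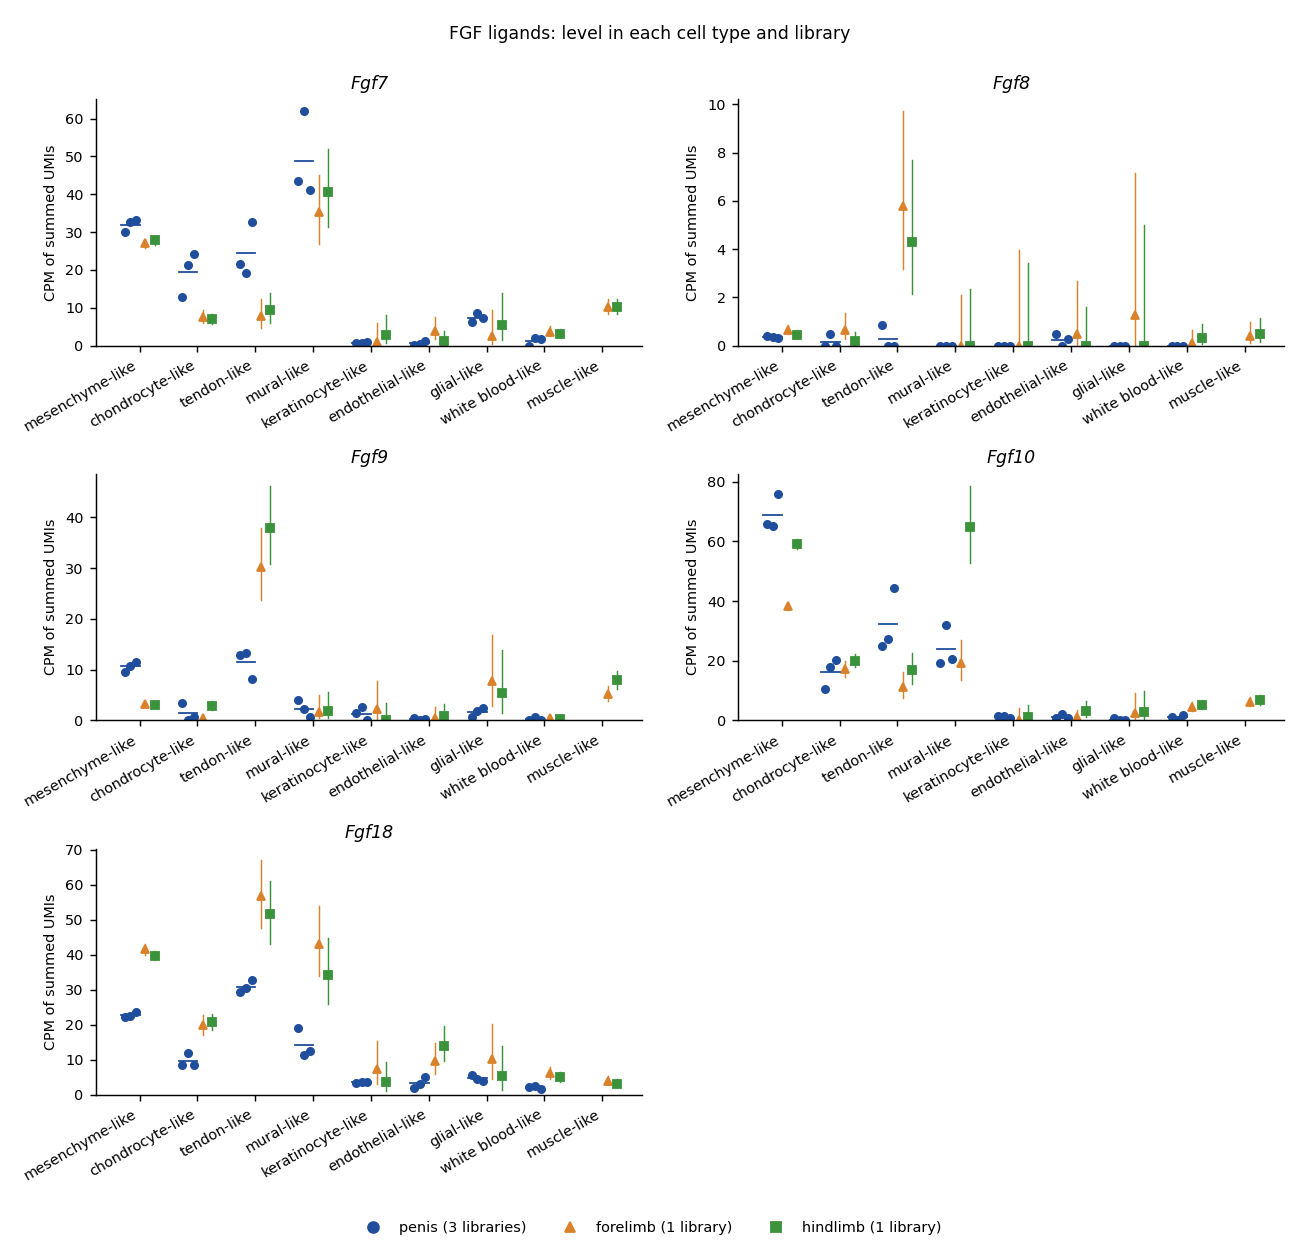
Level of each ligand gene (CPM of summed UMIs, linear axes from 0) by cell type, with 1 point per library. Bars on the limb points are 95% counting intervals and horizontal lines are penis means. The 3 penis points of *Fgf9* lie above the limb points in mesenchyme-like cells and below them in tendon-like cells, and those of *Fgf18* lie below the limb points in both.

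The first comparison asked which members differ between penis and limb within a cell type. UMI counts were summed per library and type, and edgeR's quasi-likelihood test set the 3 sums of the penis against the 2 of the limbs. A gene was called when its p-value, adjusted over all genes tested by the Benjamini-Hochberg method, was under 0.01 and its absolute log2 fold change over 1. In bulk sums of this kind, fewer cells with a transcript and less RNA per cell cannot be told apart. In mesenchyme-like cells all 9 members were tested and 2 were called, both higher in the penis, where 25.3% of all genes tested were called. *Fgf9* was higher by a log2 fold change of 1.74 ± 0.11 (SE; adjusted p = 9.16e-07) and *Fgfr3* by 1.49 ± 0.10 (adjusted p = 1.81e-06). *Fgf18* had a log2 fold change of -0.85 ± 0.06 (adjusted p = 1.56e-06) and *Fgfr2* of 0.64 ± 0.06 (adjusted p = 1.36e-05), below the size needed for a call. *Fgf10*, *Fgf7* and *Fgf8* had log2 fold changes of 0.48 ± 0.15, 0.20 ± 0.06 and -0.67 ± 0.28, with adjusted p-values of 0.0170, 0.0188 and 0.0607. With 1 library left out, *Fgf10* ran from 0.20 without the forelimb to 0.81 without the hindlimb, and *Fgf8* from -0.92 without the hindlimb to -0.38 without the forelimb. *Fgfr1* and *Fgfr4* had log2 fold changes of 0.00 ± 0.05 and -0.03 ± 0.14, which changed sign under other settings. Markers of other cell types moved too: the keratinocyte list summed to 115 to 128 CPM in penis and 48 to 51 CPM in limb mesenchyme-like cells, the osteoblast list to 57 to 60 against 12 to 13 CPM, the red blood list to 270 to 367 against 2198 and 2320 CPM, and their part in these differences was not tested.

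In endothelial-like cells *Fgf18* was the member called among 4 tested, lower in the penis, beside 13.3% of all genes. Its levels were 2.08, 3.08 and 4.94 CPM in the penis and 9.62 and 13.99 CPM in the limbs, which did not overlap, and its log2 fold change was -1.89 ± 0.36 (adjusted p = 0.000210). Without the hindlimb library the log2 fold change was -1.59 and the adjusted p = 0.0204, which ends the call. White blood-like cells moved the same way at lower levels, from 6.14 and 5.01 CPM in the limbs to 1.65 to 2.58 CPM in the penis. The mesenchyme list summed to 379 to 468 CPM in the penis and 292 CPM in each limb library of the endothelial-like cells, and the part of either in the call was not tested. In mural-like cells *Fgf18* was again the called member, 1 of 6 tested beside 14% of all genes. It fell by 1.44 on the log2 scale (SE 0.24, adjusted p = 0.000308), from 43.1 and 34.3 CPM in the limbs to 19.1, 11.4 and 12.5 CPM in the penis. The mural markers themselves were higher in the penis cells of this gate, with *Myh11* at 642 to 771 CPM against 74.9 and 49.6 CPM in the limbs, *Acta2* at 2393 to 3046 against 1025 and 527 CPM, and *Rgs5* at 1220 to 1741 against 378 and 321 CPM. The keratinocyte list summed to 115 to 151 CPM in the penis and 31.8 and 22.2 CPM in the limbs, and the part of these differences was not tested. *Fgf10* in mural-like cells rested on 1 library. It stood at 64.8 CPM in the hindlimb and 19.3 CPM in the forelimb, and its log2 fold change of -0.81 ± 0.37 was -1.45 (called) without the forelimb and 0.28 without the hindlimb.

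In chondrocyte-like cells 3 of 7 members tested were called, beside 16.5% of all genes. *Fgf7* was higher in the penis by a log2 fold change of 1.43 ± 0.25 (adjusted p = 0.000837), with 12.9, 21.2 and 24.1 CPM against 7.61 and 6.98 CPM. *Fgf18* was lower by -1.02 ± 0.20 (adjusted p = 0.00183), with 8.47, 12.1 and 8.48 CPM against 19.8 and 20.7 CPM. *Fgfr4* was lower by -1.74 ± 0.32 (adjusted p = 0.00115), with 2.99, 4.82 and 2.61 CPM against 10.1 and 14.2 CPM. The libraries of the tissues did not overlap for any of these genes. With a gate of 1 more marker, *Fgf7* had a log2 fold change of 0.79 (adjusted p = 0.110) and *Fgf18* of -0.69 (adjusted p = 0.0474), and *Fgfr4* alone remained called. The call of *Fgf18* was also lost with a gate of 1 marker fewer (-0.92) and with all barcodes (-0.81). Without penis library 1 the log2 fold changes of *Fgf18* and *Fgfr4* were -0.91 and -1.62 (adjusted p = 0.0144 and 0.0103), without penis library 3 that of *Fgf18* was -0.92, and without the hindlimb that of *Fgfr4* was -1.49 (adjusted p = 0.0119), none of which was a call. The cartilage genes themselves were lower in the penis cells of this gate. *Col2a1* stood at 2813 to 3650 CPM in the penis and 5319 and 6098 CPM in the limbs. In the same cells the mesenchyme list summed to 5622 to 5941 CPM in the penis and 2077 and 2349 CPM in the limbs, with all 10 markers found in each library. The osteoblast list summed to 1533 to 1964 CPM against 122 and 133 CPM, with 7 or 8 of its 8 markers found. The part of these cells in the differences was not tested.

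*Fgfr1* stood at a like level in mesenchyme-like cells of all libraries. Its level was 236, 230 and 241 CPM in the penis libraries against 236 and 227 CPM in forelimb and hindlimb, so that the tissues overlapped. Of the types in the order, chondrocyte-like cells had the highest mean in both tissues, at 217 to 262 CPM in the penis, a range that held that of the mesenchyme-like cells, and at 309 and 270 CPM in the limbs. The 66 osteoblast-like cells of the penis, left out of the order, held 251 to 336 CPM on 236 UMIs. Keratinocyte-like cells held 40.8 to 55.7 CPM in the penis and 39.6 and 28.6 CPM in the limbs. White blood-like cells were lowest in the penis, at 18.1 to 20.6 CPM. With thinning, 36.0% to 37.4% of penis, 35.2% of forelimb and 33.2% of hindlimb mesenchyme-like cells had a UMI, against 2.99% to 3.50%, 6.91% and 7.51% of white blood-like cells. Unthinned, the shares were 82.5% to 84.7%, 66.7% and 67.3% against 10.0% to 11.6%, 17.6% and 20.6%.

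*Fgfr2*, which carries the epithelial receptor for FGF7 and FGF10, was highest in keratinocyte-like cells of the penis. Its level there was 503, 468 and 615 CPM, against 339 CPM in forelimb and 316 CPM in hindlimb keratinocyte-like cells, with no overlap. In limb chondrocyte-like cells it reached 356 CPM in the forelimb and 422 CPM in the hindlimb, above the 237 to 243 CPM of the penis. Mesenchyme-like cells held 244, 234 and 252 CPM in the penis and 146 and 162 CPM in the limbs. No cell type was near 0: white blood-like cells held 107, 89.8 and 134 CPM in the penis and 91.2 and 94.9 CPM in the limbs, and muscle-like cells 79.0 and 92.0 CPM. The thinned share of cells with a UMI was 46.2% to 55.3% in penis keratinocyte-like cells and 34.8% and 31.4% in those of the limbs, above 15.9% to 21.4%, 15.4% and 16.6% of white blood-like cells. Unthinned, the shares were 59.5% to 69.6%, 46.6% and 42.1%, against 41.8% to 44.7%, 39.3% and 47.5%. The level in muscle-like cells did not exceed that in white blood-like cells, and no expression of *Fgfr2* in muscle-like cells is read from it.

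*Fgfr3*, the receptor gene known for restraining growth plate cartilage, was highest in chondrocyte-like cells. Its level was 49.3, 57.4 and 56.7 CPM in the penis libraries against 82.5 and 94.3 CPM in forelimb and hindlimb. Keratinocyte-like cells came next, at 41.8, 44.1 and 51.7 CPM in the penis, a range that overlapped that of penis chondrocyte-like cells, and at 34.3 and 18.5 CPM in the limbs. Mesenchyme-like cells held 12.9, 11.7 and 12.9 CPM in the penis and 4.74 and 3.98 CPM in the limbs, with no overlap. White blood-like cells stayed at or below 1.59 CPM. The thinned share of chondrocyte-like cells with a UMI was 7.96% to 8.65% in penis libraries and 14.3% and 15.1% in forelimb and hindlimb, against at most 0.385% of white blood-like cells in any library (unthinned, 34.5% to 40.1%, 30.5% and 34.6% against at most 1.15%).

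*Fgfr4* marked the muscle-like cells of the limb. Its level there was 126 CPM in the forelimb (95% Poisson interval 119 to 133) and 132 CPM in the hindlimb (125 to 139). Outside muscle it stood at 10.1 and 14.2 CPM in limb chondrocyte-like cells and at 2.62 to 3.18 CPM in mesenchyme-like cells of every library. White blood-like cells of the limbs held 1.02 and 0.819 CPM. The 132 and 127 red blood-like cells of the limbs held 30.1 and 44.0 CPM, from 15 and 29 UMIs. The thinned share of muscle-like cells with a UMI was 21.9% and 23.0%, against 0.191% and 0.156% of white blood-like cells (unthinned, 59.7% and 67.9% against 0.740% and 0.603%). The muscle marker list summed to 39 to 54 CPM in limb chondrocyte-like cells, with all 10 markers found, and to 54 to 64 CPM in limb white blood-like cells.

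**Figure D2:**
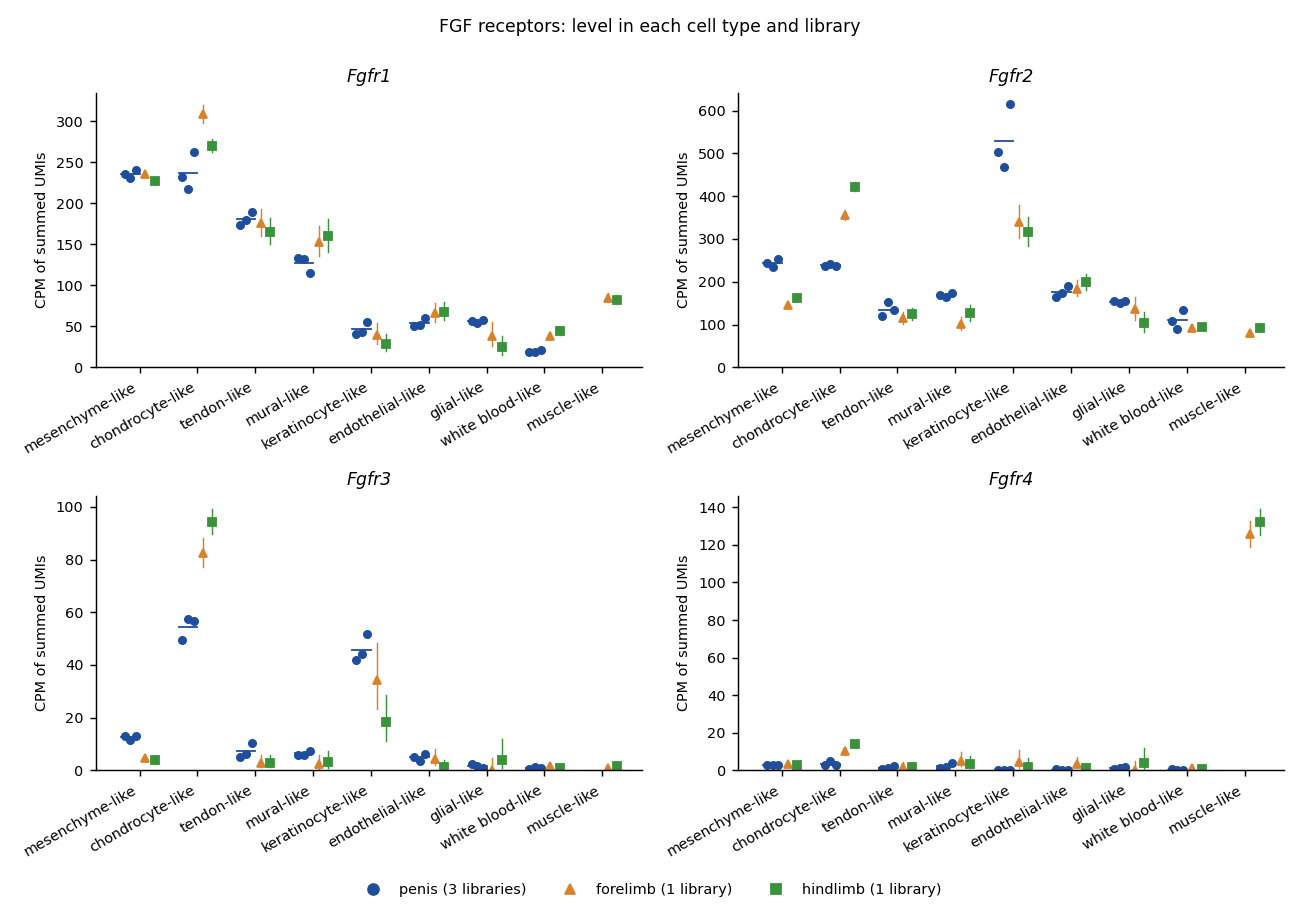
Level of each receptor gene (CPM of summed UMIs, linear axes from 0) by cell type, with 1 point per library, 95% counting intervals on the limb points and lines at penis means. *Fgfr4* stands at 126 and 132 CPM in limb muscle-like cells, *Fgfr2* is highest in penis keratinocyte-like cells at 468 to 615 CPM, and *Fgfr3* in limb chondrocyte-like cells at 82.5 and 94.3 CPM.

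In keratinocyte-like cells 3 members were tested and 0 were called by edgeR, beside 11.9% of all genes. The levels of *Fgfr1*, *Fgfr2* and *Fgfr3* did not overlap between tissues. For *Fgfr1* the lowest penis level was 40.8 CPM and the highest limb level 39.6 CPM. The share of all genes without overlap was not counted. *Fgfr2* had a log2 fold change of 0.71 ± 0.15 (adjusted p = 0.000948), *Fgfr3* of 0.84 ± 0.23 (adjusted p = 0.0108) and *Fgfr1* of 0.47 ± 0.21 (adjusted p = 0.114). All 3 had an unadjusted p under 0.05, a limit at which the other genes were not counted. Without the forelimb library *Fgfr3* had a log2 fold change of 1.30 (adjusted p = 0.00157) and was called. DESeq2 also called 0 members. In the keratinocyte-like cells the marker *Fxyd3* stood at 871 to 966 CPM in the penis against 176 and 159 CPM in the limbs, and *Krt18* at 34.7 to 49.1 against 292 and 141 CPM. The muscle list summed to 1.26 to 3.32 against 57.8 and 46.1 CPM, the mural list to 53.1 to 61.0 against 113 and 175 CPM, and the red blood list to 229 to 1424 against 2688 and 5390 CPM. The part of these marker differences was not tested. In glial-like cells (Schwann cell lineage) 2 members were tested and 0 were called by edgeR or DESeq2, beside 16.1% of all genes called by edgeR. Both members had an unadjusted p under 0.05 in edgeR, a limit at which the other genes were not counted. *Fgfr1* stood there at 56.6, 54.4 and 57.3 CPM in the penis and 38.6 and 24.3 CPM in the limbs, with a log2 fold change of 0.86 ± 0.22 (adjusted p = 0.00433), and was called without the forelimb at 1.25. In white blood-like cells 1 of 2 members was called beside 23.7% of all genes. *Fgfr1* fell there by 1.10 on the log2 scale (SE 0.16, adjusted p = 8.3e-05), from 38.2 and 44.0 CPM in the limbs to 18.2, 18.1 and 20.6 CPM in the penis. With cells of mixed gates kept, its log2 fold change was -0.98 (adjusted p = 0.000281), which is not a call, and 0 of the 9 members were then called by edgeR. In these cells the muscle list summed to 4.54 to 17.4 CPM in the penis and 64.1 and 53.9 CPM in the limbs, and the mesenchyme list to 107 to 134 and 122 to 140 CPM. The gate's own markers *Lyz2* and *Lst1* were higher in the penis, at 5243 to 6800 against 1336 and 1123 CPM and at 875 to 1010 against 317 and 306 CPM. White blood-like cells served above as a background type. Mean levels of *Fgf7*, *Fgf10* and *Fgf18* in them were also lower in the penis, at 1.20, 0.928 and 2.17 CPM against 3.40, 4.88 and 5.57 CPM. Of the members *Fgfr2* alone had a higher mean in the penis, at 110 against 93.0 CPM. The part of these differences was not tested. Over all filtered cells 3 of 9 members were called beside 24.5% of all genes: *Fgfr4* was lower in the penis at -2.99 ± 0.10 (adjusted p = 1.1e-07), *Fgf8* lower at -1.10 ± 0.23 (adjusted p = 0.00253) and *Fgf9* higher at 1.02 ± 0.11 (adjusted p = 4.69e-05). These sums hold the limb muscle-like cells, for which the penis has no counterpart. *Fgf8* was not called without penis library 2 or 3 or the forelimb (-1.07, -1.01 and -0.92), nor *Fgf9* without the forelimb (0.89). With all barcodes both calls were lost (-0.88 and 0.83) and 1 of 9 members was called.

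**Figure D3:**
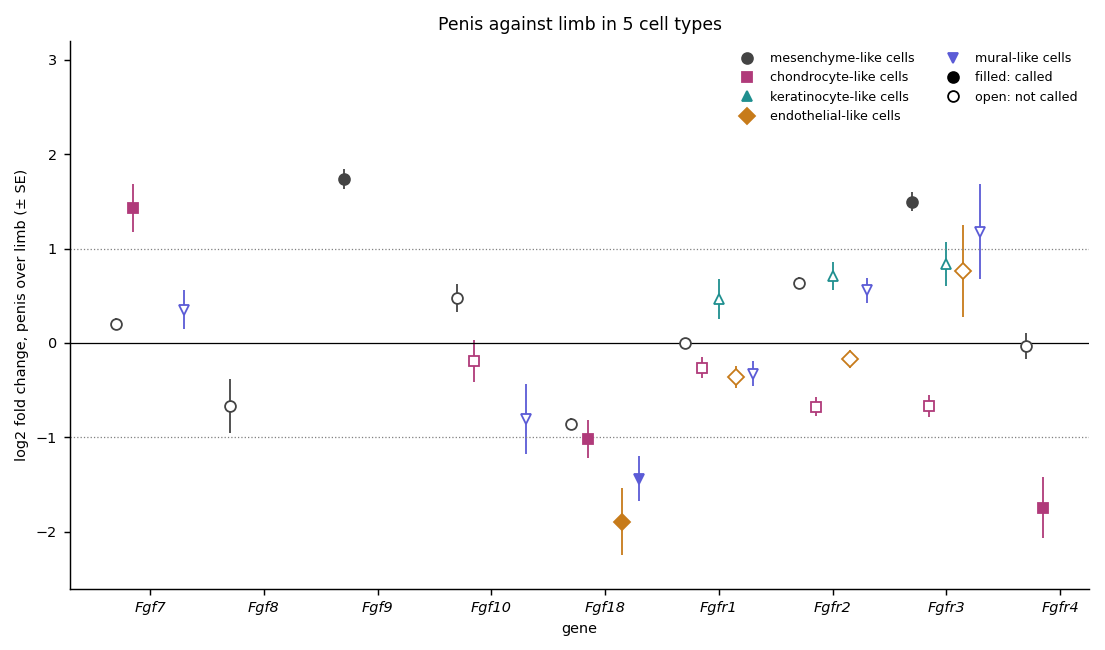
Log2 fold change of penis over limb (± SE, edgeR) for the members tested in 5 cell types, with filled symbols for calls and dotted lines at the size needed for one. *Fgf9* and *Fgfr3* are called higher in mesenchyme-like cells, and *Fgf18* lies below 0 in the 4 types where it was tested.

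The second comparison set the cell types of the same libraries against each other, with library as a blocking factor. The limb fits rest on the forelimb and hindlimb libraries alone, so few residual degrees of freedom stand behind their p-values. Keratinocyte-like cells of the penis differed from mesenchyme-like cells in all 8 members tested, beside 35.1% of all genes. The receptors *Fgfr3* and *Fgfr2* were higher by log2 fold changes of 2.07 ± 0.12 and 1.31 ± 0.06 (adjusted p = 1.69e-16 and 2.53e-19). The other 6 were lower, among them *Fgf10* at -5.64 ± 0.20, *Fgf7* at -5.27 ± 0.28 and *Fgfr1* at -2.16 ± 0.08 (adjusted p = 5.06e-22, 1.83e-17 and 2.09e-21). *Fgfr4*, also among them, rests on 0, 1 and 0 UMIs in these keratinocyte-like cells, and *Fgf7* on 2 in each library. *Fgf10* and *Fgf9* rest there on 10 and 12 UMIs in all. In the limbs 6 of 9 were called beside 21.2% of all genes, with *Fgfr3* and *Fgfr2* again higher, at 2.65 ± 0.38 and 1.18 ± 0.16, and *Fgf7*, *Fgf10*, *Fgf18* and *Fgfr1* lower, *Fgf10* on 0 and 1 UMIs. Members at a few UMIs in keratinocyte-like cells passed the low-count filter mainly on the counts of mesenchyme-like cells. A call of such a member could hardly be other than lower, so the numbers of calls are not read as a result about the members.

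Chondrocyte-like cells of the limbs had 5 of 9 members called against mesenchyme-like cells, beside 10.8% of all genes. *Fgfr3* was higher by a log2 fold change of 4.37 ± 0.11 (adjusted p = 9.39e-08), *Fgfr4* by 2.08 ± 0.19 (adjusted p = 0.000106) and *Fgfr2* by 1.36 ± 0.05 (adjusted p = 1.39e-06), and *Fgf7* and *Fgf10* were lower, by -1.89 ± 0.10 and -1.37 ± 0.10. In the penis 4 of 8 were called beside 12% of all genes. *Fgfr3* was higher by 2.16 ± 0.12 (adjusted p = 2.6e-11), and *Fgf9*, *Fgf10* and *Fgf18* were lower, by -2.85 ± 0.46, -2.07 ± 0.14 and -1.18 ± 0.18. *Fgf9* rests there on 7, 0 and 1 UMIs, was not called by DESeq2 (-3.65, adjusted p = 0.0244) and had a log2 fold change of -5.26 without penis library 1. *Fgf18* was not a call with all barcodes (-0.95), and *Fgf7* became one with the stricter gate (-1.38, adjusted p = 1.01e-06). *Fgfr2* had a log2 fold change of 0.01 ± 0.06 there, and its sign changed under other settings.

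Endothelial-like cells had 7 of 8 members called in the penis and 5 of 9 in the limbs, all lower than in mesenchyme-like cells, beside 33.9% and 22.7% of all genes. *Fgfr2* was not called in either, at -0.41 ± 0.04 in the penis and 0.33 ± 0.08 in the limbs, and *Fgf8*, *Fgfr3* and *Fgfr4* were not called in the limbs. Endothelial-like cells held at most 9 UMIs of *Fgf7*, *Fgf8*, *Fgf9*, *Fgf10* or *Fgfr4* in any library. Where tested, these members passed the low-count filter mainly on the counts of mesenchyme-like cells. A call of them could hardly be other than lower, so the numbers of calls are not read as a result about the members. The limb call of *Fgf9*, at -2.17 ± 0.70, was lost with DESeq2 (-2.19, adjusted p = 0.150), with the looser gate (-1.69, adjusted p = 0.162) and without the library block (-2.17, adjusted p = 0.0102). Muscle-like cells of the limbs had 6 of 9 members called beside 32.1% of all genes, with 35.9% of those calls higher, or 16.7% when no TMM scaling was used. *Fgfr4* was higher by 5.88 ± 0.09 (adjusted p = 1.38e-10) and *Fgf9* by 1.46 ± 0.22 (adjusted p = 0.000261), and *Fgf10*, *Fgf18*, *Fgfr1* and *Fgfr3* were lower. *Fgf7* had a log2 fold change of -0.99 ± 0.10 in these cells. With DESeq2 *Fgfr1* was at -0.997 and *Fgfr3* at -1.28 (adjusted p = 0.0541), neither of them a call. With mixed cells kept *Fgfr1* was at -0.98 and *Fgfr3* at -1.14 (adjusted p = 0.0155), with the looser gate *Fgfr3* was at -1.55 (adjusted p = 0.0161), and none of these was a call. *Fgf7* became a call without TMM (-1.41) and without the low-count filter (-1.05).

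The third comparison tested whether the penis against limb effect itself differs between cell types, through an interaction term in a fit that blocks on library. Between chondrocyte-like and mesenchyme-like cells 4 of 9 members differed, beside 7.21% of all genes tested. For *Fgfr3* the effect in chondrocyte-like cells minus that in mesenchyme-like cells was -2.20 ± 0.16 on the log2 scale (adjusted p = 1.55e-09), from log2 fold changes of 1.49 in mesenchyme-like and -0.67 in chondrocyte-like cells. *Fgfr2* went the same way, at -1.35 ± 0.09 (adjusted p = 3.25e-10), from 0.64 and -0.67, as did *Fgfr4* at -1.76 ± 0.39 (adjusted p = 0.00216). *Fgf7* went the other way, at 1.19 ± 0.21 (adjusted p = 0.000223), and its difference was 0.53 (adjusted p = 0.256) with the gate of 1 more marker. *Fgfr4* was not called when any 1 penis library or the hindlimb was left out, with differences between -2.06 and -1.38, nor with cells of mixed gates kept, at -1.17 (adjusted p = 0.0410). *Fgf9* had a difference of -2.07 ± 0.79 (adjusted p = 0.0677), which was -2.78 and called without the forelimb, -0.14 without the hindlimb and -4.52 without penis library 1, neither of these a call. It was also called without the low-count filter (-2.04, adjusted p = 0.000924) and with the looser gate (-2.31, adjusted p = 0.00643). Between keratinocyte-like and mesenchyme-like cells 0 of 8 members were called by edgeR, beside 8.47% of all genes called, and DESeq2 called 0 members as well. Of the 8 members, 3 had an unadjusted p under 0.05 in edgeR, a limit at which the other genes were not counted. On simulated counts of this fit, edgeR recovered 48% of changes of size 2 and 71.6% of those of size 3 on the log2 scale. The simulation set each gene at its mean level over both cell types, with 1 dispersion for all genes. It therefore does not give the recovery for members at a few UMIs in keratinocyte-like cells.

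Marker subsets showed where in a type the members lay, without a test of their own. Within mesenchyme-like cells, those with at least 3 of the fibroblast markers *Pi16*, *Clec3b*, *Dpp4* and *Cd34* held *Fgf9* at 12.9, 17.8 and 19.3 CPM in the penis and at 0.954 and 1.06 CPM in the limbs. The other mesenchyme-like cells held 9.07, 9.83 and 10.5 CPM in the penis and 3.42 and 3.19 CPM in the limbs, so that in the penis the subset lay above the rest and in the limbs below it. The limb levels of *Fgf9* in the subset rest on few UMIs. *Fgfr3* was lower in the subset than in the rest in every library. The Pi16 subset held 3.48, 2.18 and 3.26 CPM in the penis, which overlapped the 3.27 and 2.65 CPM of the limbs, whereas the other cells held 14.2, 13.0 and 14.1 CPM in the penis and 4.90 and 4.05 CPM in the limbs. *Fgfr2* was lower in the Pi16 subset as well, at 140, 135 and 142 CPM in the penis against 259, 247 and 266 CPM in the rest. *Fgf18* was higher in the subset, at 43.0, 33.8 and 32.6 CPM in the penis and 65.0 and 70.9 CPM in the limbs. Cells with at least 3 of the dermal markers *Twist2*, *Crabp1*, *Dpt* and *Lum* held *Fgf10* at 70.7, 73.6 and 86.3 CPM in the penis and at 46.8 and 70.9 CPM in forelimb and hindlimb, above the rest in every library.

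Keratinocyte-like cells with at least 3 of *Krt5*, *Krt14*, *Krt15* and *Trp63* carried most of the *Fgfr2* signal. They held 550, 501 and 655 CPM in the penis and 414 and 415 CPM in the limbs, whereas the remaining 27 to 91 cells of a library held 131, 98.1 and 134 CPM and 96.1 and 85.7 CPM, a range that overlaps the white blood-like cells. Chondrocyte-like cells with at least 2 of *Ihh*, *Col10a1*, *Panx3* and *Pth1r*, markers of maturing growth plate cells, held the highest *Fgfr3* levels of any subset. The level was 218 CPM in the forelimb (96 cells) and 247 CPM in the hindlimb (127 cells), and 114, 204 and 155 CPM in the 12, 14 and 11 penis cells. Other chondrocyte-like cells held 68.5 and 78.5 CPM in the limbs and 39.6, 32.7 and 35.6 CPM in the penis, so that the order of subset and rest was the same in all 5 libraries. *Fgfr4* was present across the muscle-like cells. Progenitors, with at least 3 of *Pax7*, *Myf5*, *Msc* and *Chodl*, held 169 and 160 CPM, and differentiating cells, with at least 3 of *Myog*, *Mymk*, *Actc1* and *Ttn*, held 107 and 119 CPM. The ligands differed between these states too. *Fgf10* stood at 18.6 and 10.9 CPM in progenitors and 2.45 and 3.45 CPM in differentiating cells, and *Fgf7* at 3.73 and 2.72 CPM against 14.2 and 16.3 CPM.

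**Figure D4:**
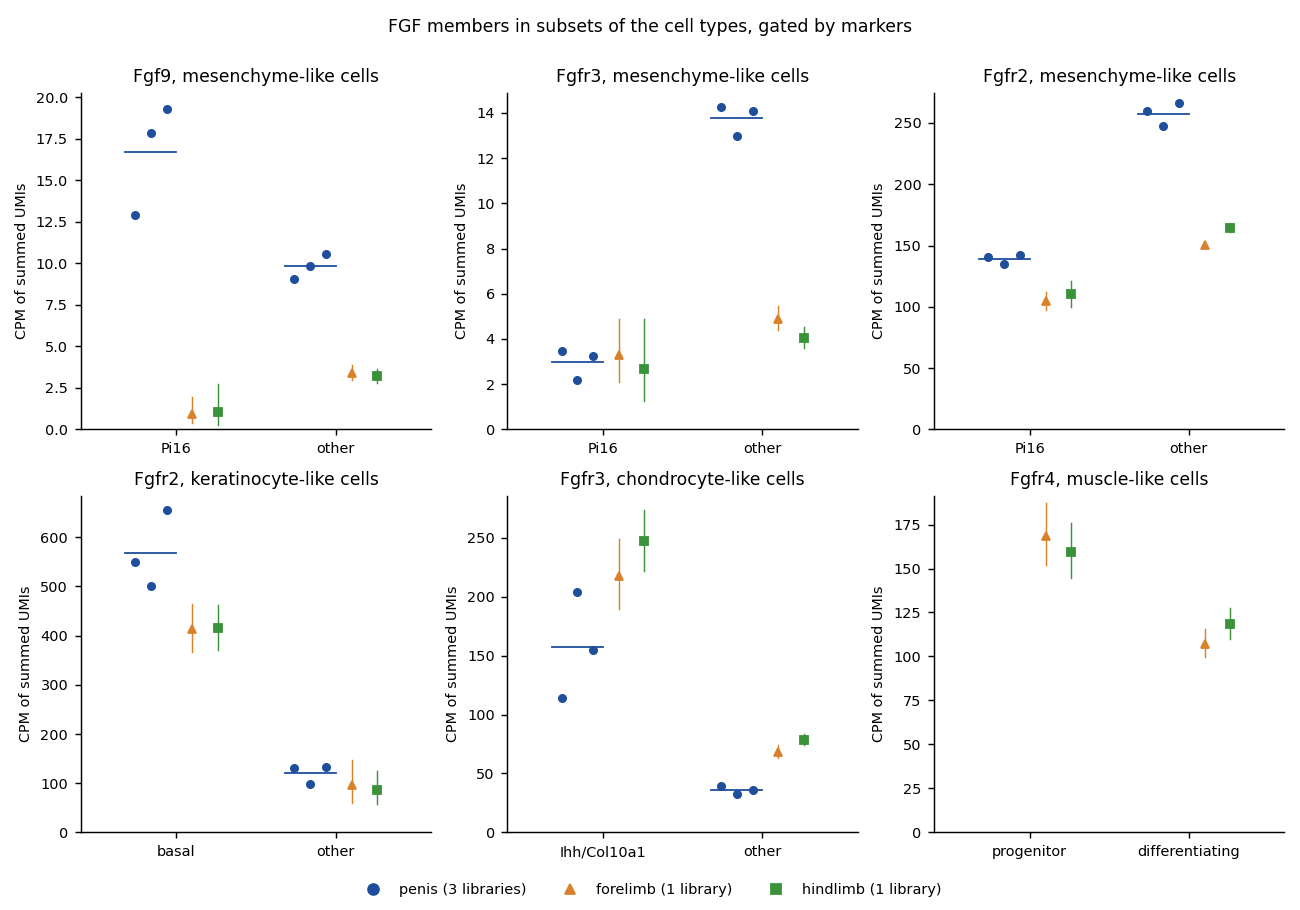
Level of selected members (CPM of summed UMIs, linear axes from 0) in subsets of mesenchyme-like, keratinocyte-like, chondrocyte-like and muscle-like cells, with 1 point per library, 95% counting intervals on the limb points and lines at penis means. *Fgf9* is higher in the Pi16 subset of the penis at 12.9 to 19.3 CPM and lower in that of the limbs at 0.954 and 1.06 CPM, on few UMIs in the limbs, and *Fgfr2* is at 501 to 655 CPM in basal penis keratinocyte-like cells.

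The other genes of the pathway were taken as 5 lists with 52 genes in all. In mesenchyme-like cells 49 were tested, of which 1 was higher and 17 lower in the penis, beside 25.3% of all genes called (2537 higher and 2608 lower of 20349), with a median log2 fold change of -0.51 where the median of all genes was 0.00. Feedback inhibitors, which the pathway induces and which dampen it, had 4 of 10 lower and 0 higher, with a median of -0.96. These 4 were *Spry1* at -1.51 ± 0.07, *Spry2* at -1.39 ± 0.07, *Spry4* at -1.16 ± 0.08 and *Dusp4* at -1.07 ± 0.13 (adjusted p = 2.6e-07, 2.7e-07, 1.4e-06 and 7.2e-05), named after their values were seen. Of 4 target transcription factors, *Etv5* was lower at -1.64 ± 0.08 (adjusted p = 3.7e-07) and none was higher. Among 15 co-receptors, binding proteins and sulfation enzymes, 5 were lower and 1 higher. The heparan sulfate 6-O-sulfotransferases went in opposite directions, *Hs6st2* at -2.59 ± 0.08 and *Hs6st3* at 2.11 ± 0.06 (adjusted p = 1.8e-08 and 1.7e-08), and the FGF carrier gene *Fgfbp1* was lower at -2.37 ± 0.19. Of 14 genes tested on the list of other ligands, 7 were lower and 0 higher. This list also holds genes of intracellular FGF homologous factors, such as *Fgf13*, which led at -2.28 ± 0.16. *Fgf5* followed at -2.15 ± 0.38, on 2 to 6 UMIs in a penis library and 28 and 36 in the limbs. None of the 6 adaptors was called, 0 in either direction, with a median of -0.17.

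In chondrocyte-like cells 34 of the 52 genes were tested, of which 1 was higher and 12 lower in the penis, beside 16.5% of all genes called (1156 higher and 855 lower of 12202), with a median of -0.72 beside 0.00 for all genes. Of 8 feedback inhibitors tested 6 were lower, with a median of -1.52. *Spry2* fell by 2.55 on the log2 scale (SE 0.14, adjusted p = 1.8e-07), from 94.0 and 87.4 CPM in the limbs to 15.4, 13.5 and 17.0 CPM in the penis. *Etv5* was lower at -2.26 ± 0.24 and *Hs6st2* at -4.79 ± 0.23, *Fgf12* and *Fgf14*, both for FGF homologous factors, were lower at -5.12 ± 0.42 and -2.62 ± 0.44, and *Hs6st3* was higher at 1.22 ± 0.10. The part of the marker differences given above for the chondrocyte-like cells was not tested. Nor were these genes checked with the stricter gate, under which the calls of *Fgf7* and *Fgf18* in these cells were lost. In keratinocyte-like cells 4 of 32 genes tested were higher and 6 lower, beside 11.9% of all genes called, and 0 of 8 feedback inhibitors was called. The part of the marker differences given above for the keratinocyte-like cells was not tested. *Fgf14* and *Fgf13* were higher there, with 272 to 305 and 119 to 181 UMIs in a penis library against 0 to 3 and 4 to 9 in a limb library, and *Hs6st3* and *Fgf1* were higher at 2.77 ± 0.23 and 2.48 ± 0.64. *Hs6st2* was lower on 0 to 3 UMIs against 17 and 31, as were *Fgf20* at -3.34 ± 0.83, *Fgfbp1* at -2.23 ± 0.20, *Etv4* at -2.18 ± 0.57 and *Sulf2* at -1.72 ± 0.29.

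In endothelial-like cells 3 of 33 genes tested were higher and 6 lower, beside 13.3% of all genes called. *Hs6st2* was lower there on 2 to 5 UMIs in a penis library against 37 in each limb library, and *Fgf12*, *Etv4*, *Sulf2* and *Spred2* were lower at -1.89 ± 0.31, -1.85 ± 0.31, -1.78 ± 0.31 and -1.26 ± 0.14. The FLRT protein gene *Flrt3*, the phosphatase gene *Dusp4* and the immediate early gene *Egr1* were higher, at 1.75 ± 0.28, 1.04 ± 0.28 and 1.03 ± 0.09. Glial-like cells had 3 of 30 genes tested higher and 7 lower, beside 16.1% of all genes called. *Hs6st2*, *Fgf12*, *Sulf2*, *Hs6st3* and *Etv5* led those that were lower, at -2.45 ± 0.23, -2.09 ± 0.45, -1.90 ± 0.22, -1.67 ± 0.39 and -1.44 ± 0.27, so *Hs6st3* ran opposite to its direction in mesenchyme-like cells. *Fgf2* and *Egr1* were higher at 2.92 ± 0.44 and 1.74 ± 0.12, and *Fgf1* on 11, 30 and 11 UMIs against 0 and 2.

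In mural-like cells 2 of 34 genes tested were higher, *Hs6st3* at 2.07 ± 0.17 and *Etv1* at 1.71 ± 0.23, and 5 lower, beside 14% of all genes called. These were *Hs6st2* at -2.59 ± 0.23, *Sulf2* at -1.93 ± 0.18, *Flrt1* at -1.83 ± 0.50, *Fgf13* at -1.42 ± 0.34 and *Sulf1* at -1.42 ± 0.15. White blood-like cells had 4 of 22 genes tested in each direction, beside 23.7% of all genes called. *Hs6st2* fell there by 5.04 on the log2 scale (SE 0.33), from 534 and 628 CPM in the limbs to 3.41, 26.5 and 24.7 CPM in the penis, and *Flrt3* was lower on 2 or 3 UMIs against 134 and 133. *Hs2st1* and *Spred1* were lower at -1.74 ± 0.12 and -1.52 ± 0.11, and *Dusp6*, *Sulf2*, *Egr1* and *Fgf13* higher at 1.83 ± 0.16, 1.63 ± 0.21, 1.27 ± 0.12 and 1.25 ± 0.30. Over all filtered cells 1 of 50 genes tested was higher, *Hs6st3* at 1.95 ± 0.05, and 12 were lower, 13 of 50 beside 24.5% of all genes called. *Hs6st2* led these at -3.44 ± 0.08, followed by *Fgf6* on 0 to 2 UMIs in a penis library against 23 in each limb library, *Fgf5* at -1.93 ± 0.37, *Fgf12* at -1.79 ± 0.22 and *Etv5* at -1.72 ± 0.08. *Hs6st2* was lower in the penis in all 7 cell types tested.

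**Figure D5:**
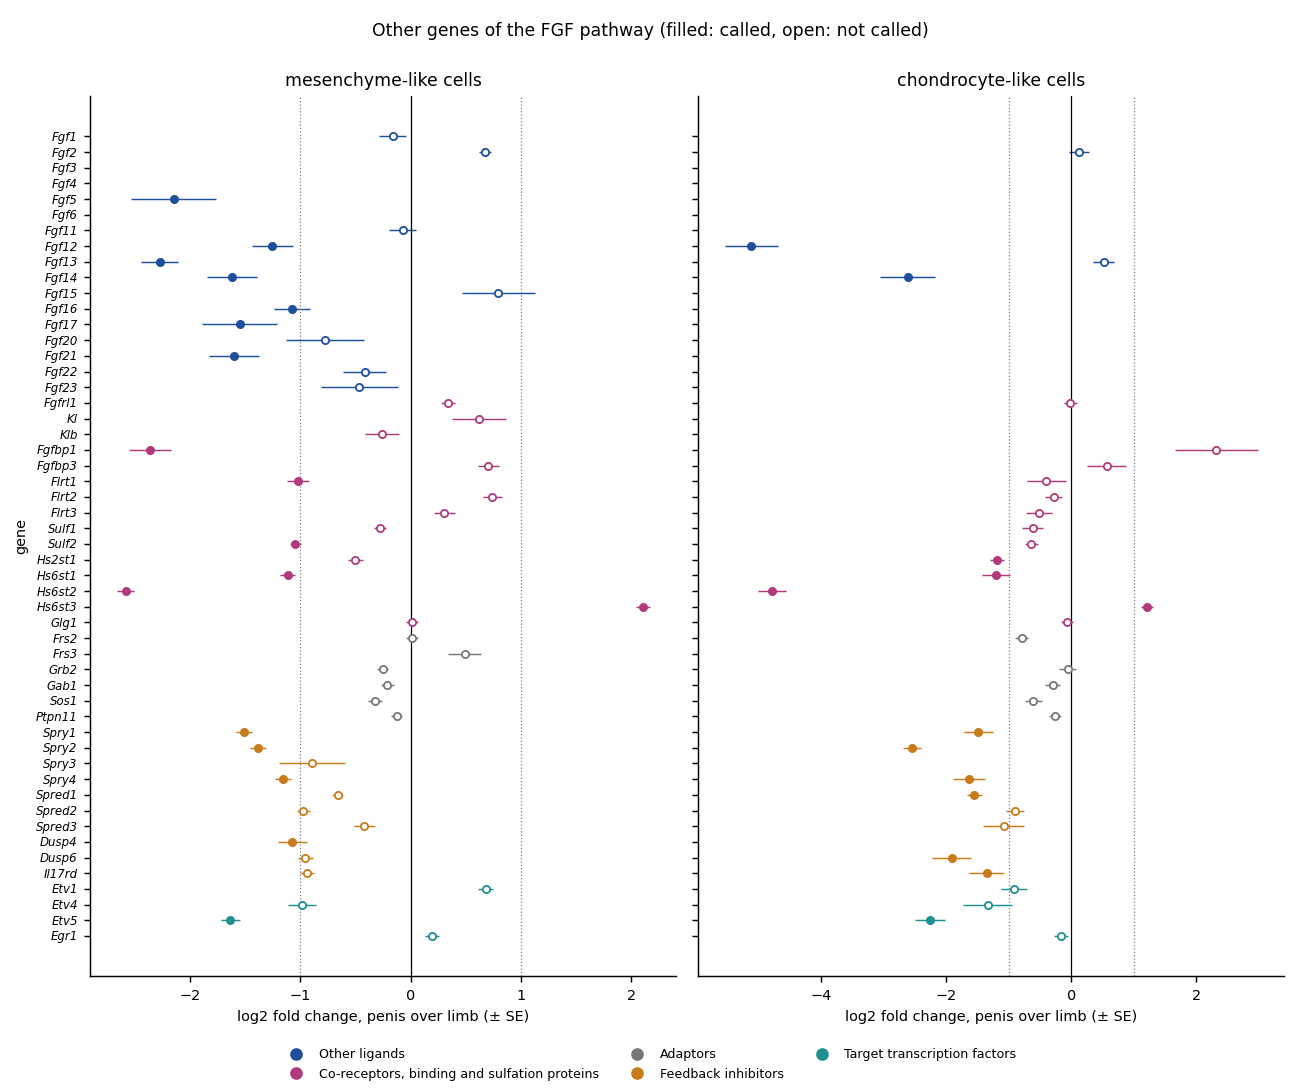
Log2 fold change of penis over limb (± SE, edgeR) for the other pathway genes tested in mesenchyme-like and chondrocyte-like cells, with filled symbols for calls and dotted lines at the size needed for one. All 10 feedback inhibitors lie below 0 in mesenchyme-like cells, 4 of them called, and *Hs6st2* and *Hs6st3* lie on opposite sides of 0.

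The genes whose levels ran most like each member were found by Pearson's r of log2(CPM + 1) over the 44 sums of a library and a cell type with at least 50 cells, among 12381 genes. The points share libraries and differ in depth, and r is a description. *Fgf10* ran most like *Lrrc17*, *Lum* and *Loxl1* (r = 0.929, 0.922 and 0.919), genes of the extracellular space. *Fgf7* ran most like *Col6a1*, *Ank2* and *Col6a2* (0.914, 0.906 and 0.901), and *Fgf18* like *Twist1*, *Gm10635* and *Lum* (0.902, 0.890 and 0.885). *Fgf9* came nearest to *Nnat*, *Lgr5* and *Cited1* (0.760, 0.703 and 0.703), and *Fgf8*, at a mean of 0.416 CPM, to *Mtif2*, *Cilp* and *Khdrbs2* (0.722, 0.701 and 0.612). Among the receptors, *Fgfr1* ran like *Thsd4*, *Hand2* and *Dnajc25* (0.929, 0.926 and 0.925), *Fgfr2* like *Lrrc1*, *Micall1* and *Ctdspl* (0.809, 0.781 and 0.780), *Fgfr3* like *Efcab1*, *Ctdspl* and *Anxa8* (0.857, 0.835 and 0.832) and *Fgfr4* like the muscle genes *Cdh15*, *Pax7* and *Fitm1* (0.869, 0.864 and 0.860). *Pax7*, *Twist1*, *Col6a1* and *Col6a2* were among the markers that gated the cell types.

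Forelimb and hindlimb had 1 library each, so their differences have no replicate check and no test. *Fgf10* stood at 38.2 CPM (95% Poisson interval 36.8 to 39.6) in forelimb and 59.3 CPM (57.6 to 61.0) in hindlimb mesenchyme-like cells, and at 19.3 and 64.8 CPM in mural-like cells. *Fgf9* in chondrocyte-like cells had 5 UMIs in the forelimb and 45 in the hindlimb, at 0.476 CPM (0.154 to 1.11) and 2.88 CPM (2.10 to 3.86). *Fgfr2* in chondrocyte-like cells stood at 356 CPM (345 to 368) in the forelimb and 422 CPM (412 to 433) in the hindlimb. *Fgf18* in mesenchyme-like cells had overlapping intervals, at 41.5 CPM (40.0 to 43.0) and 39.7 CPM (38.3 to 41.1).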

How the data were processed

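The deposited files held filtered UMI count matrices for 5 libraries, with 8411 to 11397 barcodes in a penis library and 28266 and 25937 in forelimb and hindlimb. The authors made these counts with Cell Ranger 7.0.0 against mm10, per the submitters' processing notes. Whether intronic reads were counted and which gene annotation was used are not given in the sources used here. The smallest barcode of each library had 500 UMIs.

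The study's methods word their cell limits as reads per cell. They were applied here to genes detected, since the median penis cell kept has more UMIs than the upper limit: 500 to 6000 genes and at most 5% mitochondrial UMIs in the penis, 100 to 9000 genes in the forelimb and 100 to 9500 in the hindlimb with at most 10%, and a ratio of log10 genes to log10 UMIs of at least 0.8. A cell was given a type when it had UMIs of a minimum number of that type's markers, 3 for osteoblast, 4 for tendon and mural, 6 for mesenchyme, 7 for chondrocyte and 5 for the other types. Chondrocyte, osteoblast, tendon and mural gates took precedence over the mesenchyme gate, and among them the type with the largest share of its markers was taken. Other cells that met more than 1 gate, called mixed, were left out, and no doublet caller was run.

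Counts were summed per library and type and tested with edgeR 4.0.16 (limma 3.58.1, R 4.3.3): filterByExpr, TMM factors, a quasi-likelihood fit with p-values adjusted by the Benjamini-Hochberg method over every gene in the fit. The SE of a log2 fold change is its size divided by the square root of the F statistic. The fits within a tissue and the interaction had library as a blocking factor. Osteoblast-like cells numbered 8 to 28 per library, with under 20 in some libraries of each tissue, and were not tested. Forelimb and hindlimb together formed the limb group. Alternatives were DESeq2 1.42.0, no TMM, no low-count filter, all barcodes, gates of 1 marker more or fewer, mixed cells kept, no library block, and each library left out. The edgeR and DESeq2 steps were tested on simulated counts. Shares of cells were thinned to 2000 UMIs a cell, leaving out shallower cells, and to 1000 and 4000 as alternatives. Intervals are 95% exact Poisson intervals, and a count of 0 allows a level of up to 3 counts. Figures were drawn with matplotlib 3.10.9, and other steps used pandas 2.3.3, scipy 1.17.1 and numpy 2.4.6 in Python 3.11.15.

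The members, the gene lists and the tests were chosen with earlier results of these data known. Named in the text are all 9 members, up to 5 called genes in each direction with the largest log2 fold change of 52 other pathway genes in each penis against limb comparison, and the 3 genes most like each member by Pearson's r of log2(CPM + 1), among genes with a mean of at least 5 CPM over sums of at least 50 cells. Other genes of these lists that are named were chosen after their values were seen.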

Additional observations from a re-analysis of the deposited data

Results flagged for a closer look

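The penis against limb effect differed between chondrocyte-like and mesenchyme-like cells for 4 members, by the interaction test of edgeR over all genes, beside 7.21% of all genes tested. The effect in chondrocyte-like cells minus that in mesenchyme-like cells was 1.19 ± 0.21 for *Fgf7* (SE, log2 scale; adjusted p = 0.000223), -1.35 ± 0.09 for *Fgfr2* (adjusted p = 3.25e-10), -2.20 ± 0.16 for *Fgfr3* (adjusted p = 1.55e-09) and -1.76 ± 0.39 for *Fgfr4* (adjusted p = 0.00216). The call of *Fgf7* was lost with the stricter gate (0.53, adjusted p = 0.256). That of *Fgfr4* was lost without any 1 penis library or the hindlimb (adjusted p = 0.0105 to 0.0395) and with mixed cells kept (adjusted p = 0.0410). *Fgfr2* and *Fgfr3* stayed past the limits of a call under every alternative tried. The chondrocyte-like gate held 113 to 142 cells in a penis library, and in them the mesenchyme markers were higher and *Col2a1* lower than in limb cells of the same gate. These penis cells were also deeper, at medians of 12627 to 13924.5 UMIs against 4729.5 and 5542.5 in forelimb and hindlimb. The part of the markers and of depth in these differences was not tested. No tissue has more than 3 libraries, so single libraries were not tested for standing apart.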

How the results depend on the processing

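The comparison of penis with limb could not be paired, because the labels link no penis library with a limb library. The fits between cell types and the interaction were paired by library. Of 119 values for members in 17 comparisons 56 were calls. Over all alternatives, 524 of 556 values of these calls stayed calls, 32 were lost and 0 changed sign. Of 674 values that were not calls, 13 became calls and 37 changed sign, all with a size of at most 1.16 on the log2 scale as reported. Without the library block 40 of 41 calls were kept.

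The number of members called moved by more than 1.5 times under these alternatives, and the cause was not tested: with mixed cells kept it was 1 in glial-like and 0 in white blood-like cells, without the low-count filter 3 in white blood-like cells, with the looser gate 2 in mural-like cells, with the stricter gate 1 in chondrocyte-like cells, and with all barcodes 1 over all cells and 1 for the interaction of keratinocyte-like cells. With 1 library left out the number ran from 0 to 1 in keratinocyte-like, endothelial-like and glial-like cells, 1 to 2 in white blood-like and mural-like cells, 1 to 3 in chondrocyte-like cells and over all cells, and 3 to 5 around 4 for the interaction of chondrocyte-like cells. Some added calls were of members not tested in the main fit. This held for glial-like cells with mixed cells kept, and for white blood-like cells without the low-count filter or without penis library 3. Changes of single calls not given above were *Fgfr3* in mural-like cells with the looser gate (1.73), *Fgfr4* in the interaction of keratinocyte-like cells with all barcodes (-4.25) and *Fgf18* in limb chondrocyte-like against mesenchyme-like cells without the low-count filter (-1.01) and with the stricter gate (-1.10), which became calls. The limb fits between types have no value with a library left out, since no residual degrees of freedom remain.

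Signs changed for these values that were not calls. In mesenchyme-like cells *Fgfr1* was at -0.0089 with DESeq2, -0.0021 without the low-count filter, -0.030 with the stricter gate and -0.039 to 0.039 with a library left out, and *Fgfr4* at 0.0060 with all barcodes, 0.088 with the looser gate and -0.16 to 0.11 with a library left out. With the looser gate *Fgfr1* in endothelial-like cells was at 0.065, *Fgf7* in mural-like cells at -0.079 and *Fgf10* in chondrocyte-like cells at 0.16, and over all cells *Fgfr1* was at 0.00037 without TMM. With a library left out, *Fgf10* ran from -1.45 to 0.28 in mural-like cells and from -0.33 to 0.063 in chondrocyte-like cells. For keratinocyte-like against mesenchyme-like cells of the limbs, *Fgfr4* was at -0.10 with either gate and -0.81 with mixed cells kept. For chondrocyte-like against mesenchyme-like cells of the penis, *Fgfr2* was at -0.026 without TMM, -0.028 without the low-count filter and -0.032 with the stricter gate and ran from -0.032 to 0.027, and *Fgfr1* was at -0.0019 without the low-count filter and ran from -0.034 to 0.079. For muscle-like cells, *Fgf8* was at -0.35 without TMM and -0.066, -0.85 and -0.13 with the stricter gate, the looser gate and mixed cells kept. For the interaction of keratinocyte-like cells, *Fgf10* was at -1.31 with all barcodes and -0.035 with mixed cells kept, *Fgf18* at -0.13 with mixed cells kept and -0.063 to 0.83 with a library left out, and *Fgf9* ran from -2.17 to 6.68. For the interaction of chondrocyte-like cells, *Fgf18* was at 0.046 with all barcodes and 0.10 with the stricter gate, and *Fgf8* at 0.24 with the stricter gate and -6.03 to 0.25 with a library left out.

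Leaving out TMM moved the median log2 fold change of all genes from -0.18 to -0.61 for muscle-like against mesenchyme-like cells and the higher share of all calls there from 35.9% to 16.7%. It moved the median from -0.13 to -0.33 for keratinocyte-like against mesenchyme-like cells of the penis, and DESeq2 moved that of the interaction of keratinocyte-like cells from 0.09 to -0.03. For keratinocyte-like against mesenchyme-like cells of the limbs, DESeq2 called 1215 genes higher and 1464 lower where edgeR called 1496 and 2566. Of the shares of cells, 72 moved with the thinning by more than their spread and 6 did not. Values of genes at a few UMIs per library, above all *Fgf8*, are limited by these low counts.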
